A study of Homo sapiens with 18 samples.

Results

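Mitochondrial ribosomal protein genes were taken as the genes whose symbol is MRPL or MRPS followed by a number, with pseudogenes left out. The arrays represented 75 of them among 19775 genes, 48 with MRPL symbols for the large subunit and 27 with MRPS symbols for the small subunit. RefSeq lists 77 such genes, 49 MRPL and 28 MRPS. MRPL53 and MRPS24 had only probe sets that the annotation assigns to several genes and were not analysed here. A probe set is a group of short probes that reads 1 transcript region, and the brightest probe set of a gene, by its mean over 18 arrays, stood for that gene. All 75 genes passed the filter on low signal, and all 75 were at or above its level of 5.36 on each of the 16 bone tumor arrays. The highest means over 18 arrays were those of MRPL9 (11.50), MRPL3 (11.32) and MRPL47 (11.30), and the lowest those of MRPL38 (7.21), MRPL2 (7.57) and MRPL55 (7.72), which are levels of different probes and were not compared.

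Mitochondrial ribosomes translate the few proteins that mitochondrial DNA encodes, all of them subunits of the respiratory chain and ATP synthase. Their RNA comes from mitochondrial DNA, whereas their proteins come from nuclear genes, are made in the cytosol and are imported. The large subunit forms peptide bonds and holds the exit tunnel, which sits at the inner membrane, and the small subunit decodes the mRNA.

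The samples were human osteosarcoma cells of the established lines 143B and MNNG/HOS (MNNG), both derivatives of the HOS line, marked with the green fluorescent protein ZsGreen and grown as orthotopic bone tumors. Cells that kept the membrane dye PKH26, which cell division dilutes, were sorted as High (called TICs, tumor-initiating cells, in the labels), and cells that had lost it as Low (non-TICs, bulk tumor cells). The groups were 143B_High (n = 3), 143B_Low (n = 5), MNNG_Lung (n = 2, MNNG lung metastases), MNNG_High (n = 4) and MNNG_Low (n = 4). High samples held 150000 cells and Low samples 700000 cells, and 2 of the 143B_High arrays, 143B-51&52 and 143B-54&55, were read as pools of 2 tumors each. The cells were ZsGreen-transduced in all 5 groups, and each line is a single cell line, so the number of tumors measures spread within a line. No dye fraction is given for the lung samples. Where a tumor gave both fractions, High and Low carry the same tumor number.

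The arrays were not alike in quality. The signal spread, as the interquartile range on the log2 scale, was 2.09 and 2.28 for the lung, 2.76 to 3.18 for MNNG_High and 3.26 to 3.48 for all other arrays. The 3' minus 5' signal of ACTB, a check of RNA integrity, was -2.16 and -2.97 on the lung arrays and positive on all bone arrays. Between both lung arrays r was 0.865, against at least 0.956 within bone groups. A date tag in the labels was shared by MNNG_High, the lung arrays and the MNNG_Low array of MNNG-1231, while the other 3 MNNG_Low arrays carried another and all 143B arrays a different one again. Line and date tag cannot be told apart. VIM was 14.3 to 14.6 in every group. Markers of the bone lineage were not alike. In the 4 bone groups the means were 8.66 to 10.50 for RUNX2, 10.52 to 13.83 for COL1A1 and 10.76 to 12.30 for SPARC. ALPL and SP7 had means under the filter level in all 4 bone groups, and means of 6.04 and 6.38 in MNNG_Lung.

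Upstream sequences show what letters the members with the clearest differences carry near their starts. RefSeq promoter windows (GRCh38.p14) were at hand for 67 of the 75 genes. The 250 bases upstream of the start were searched on both strands for the core of the NRF1 site, an ETS-family site of the GABP type (CCGGAAG), a YY1 site (AAGATGGCG), an SP1-type GC box (GGGGCGGG) and TATAAA. Both NRF1 and GABP are known regulators of nuclear genes for mitochondria. The 120 bases next to the start are printed for MRPL17 (chr11:6683341-6683460 on the minus strand) and MRPL36 (chr5:1799838-1799957 on the minus strand), the large-subunit genes that were most above MNNG in 143B_Low, and for MRPS9 (chr2:105037949-105038068 on the plus strand), the gene lowest in MNNG_High against MNNG_Low. Capitals mark the NRF1 core and, in MRPL36, a YY1 site nearer the start.
MRPL17: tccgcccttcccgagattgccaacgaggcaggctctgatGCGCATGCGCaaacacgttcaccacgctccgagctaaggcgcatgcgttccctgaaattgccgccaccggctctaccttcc
MRPL36: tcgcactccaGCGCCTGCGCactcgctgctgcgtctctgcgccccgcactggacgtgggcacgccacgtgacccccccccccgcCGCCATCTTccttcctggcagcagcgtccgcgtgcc
MRPS9: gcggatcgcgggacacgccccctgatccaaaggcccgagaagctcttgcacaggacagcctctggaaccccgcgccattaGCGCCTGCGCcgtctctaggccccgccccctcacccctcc
MRPS6 (chr21:34073458-34073577 on the plus strand) and MRPL41 (chr9:137551759-137551878 on the plus strand), the genes most below MNNG in 143B_Low, held none of the NRF1 core, ETS or YY1 letters in 250 bases. MRPS17, MRPL46, MRPS16 and MRPL16, which were above MNNG in 143B_Low, held none either. Among genes below MNNG there, MRPL58, MRPL38 and MRPS23 held ETS letters, and MRPL39 and MRPS2 held none. GC box letters are not marked, though the MRPS6 and MRPL41 stretches hold them. Motif shares were not counted by line difference.
MRPS6: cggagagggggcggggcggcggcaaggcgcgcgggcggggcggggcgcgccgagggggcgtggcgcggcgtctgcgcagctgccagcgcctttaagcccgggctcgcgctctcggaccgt
MRPL41: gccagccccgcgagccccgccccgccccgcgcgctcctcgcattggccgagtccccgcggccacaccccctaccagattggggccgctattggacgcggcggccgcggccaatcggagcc
MRPL46 (chr15:88467389-88467508 on the minus strand) and MRPS11 (chr15:88467588-88467707 on the plus strand) were the single pair of members with back-to-back starts within 1000 bases, with 319 bases between the starts.
MRPL46: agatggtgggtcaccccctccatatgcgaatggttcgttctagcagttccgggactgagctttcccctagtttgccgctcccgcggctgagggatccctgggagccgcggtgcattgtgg
MRPS11: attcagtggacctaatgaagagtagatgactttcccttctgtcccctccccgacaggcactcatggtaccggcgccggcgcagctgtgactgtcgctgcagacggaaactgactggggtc

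Over the 67 genes, the ETS letters were in 24 (35.8%), against 10.2% of all 27305 genes with a window. The NRF1 core was in 9 (13.4%, against 6.20%), YY1 in 3 (4.48%, against 0.784%) and the GC box in 27 (40.3%, against 25.1%). TATAAA was in 2 (2.99%, against 13.0%). All genes here include noncoding ones, and a match is letters in a window, not a bound site. Among the 24 members with a window that were called lower in MNNG_High, 33.3% held ETS letters and 12.5% the NRF1 core, against 37.2% and 14.0% of the other 43 members. The GC box was in 50.0%, against 34.9%, YY1 letters in 0, against 6.98%, and TATAAA in 0, against 4.65%.

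**Figure D1:**
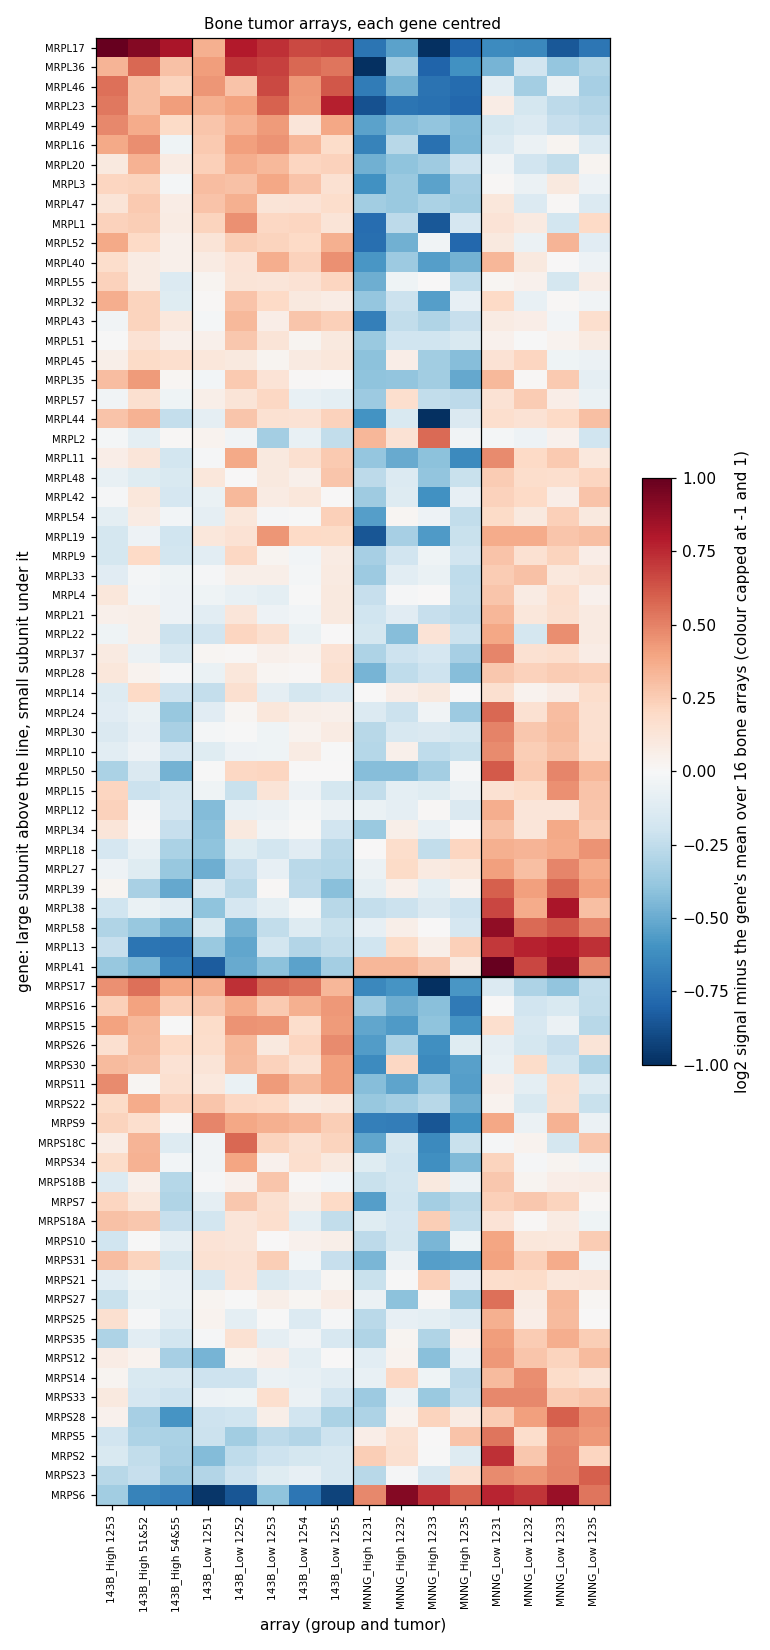
Log2 signal of the 75 genes on 16 bone tumor arrays, each gene minus its mean over these arrays, with the large subunit above the thick line and the small subunit under it. Genes run within a subunit from highest to lowest 143B_Low minus MNNG_Low. The top genes of each block, such as MRPL17 and MRPS17, are red on 143B arrays, the bottom genes, such as MRPL41 and MRPS6, are red on MNNG arrays, and MNNG_High is bluer than MNNG_Low in most genes.

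The first comparison asked how dye-retaining MNNG cells differ from MNNG cells that had lost the dye. Of 75 members, 28 were called lower in MNNG_High and 0 higher, where called means an adjusted p under 0.05 in the limma fit over all 14418 tested genes. Over all genes, 15.5% were called lower and 10.6% higher. The median member difference was -0.42 on the log2 scale, against -0.19 for all genes, and 74 of the 75 members were below 0. The members were brighter than the genes they are set against. Member medians were 9.43 to 9.53 on MNNG_High arrays and 9.83 to 10.06 on MNNG_Low arrays. Medians of all tested genes were 7.14 to 7.32 and 7.42 to 7.49. The part of signal level in the gap between the 2 median differences was not tested. Of 32 members with 2 or more tested probe sets, 21 had all of these on the same side of 0. MRPL23 had probe sets called in both directions. In bulk samples, fewer cells of a type and less RNA per cell cannot be told apart. With tumor as a replicate block and without the lung arrays, 67 members were called lower and 1, MRPL2, higher, while 55.8% of all genes were called, against 26.1% in the fit with all arrays. Leaving out the lung arrays without the block already gave 62 members called, all lower, and 44.4% of all genes.

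MRPS9, a core protein of the small subunit, had log2 signals of 8.03, 8.02, 7.85 and 8.11 in MNNG_High, against 9.09, 8.65, 9.06 and 8.65 in MNNG_Low (tumor MNNG-1231 first, then MNNG-1232, MNNG-1233 and last MNNG-1235). Every High array was under every Low array. Its difference was -0.86 ± 0.13 (SE, 1.81-fold lower, adjusted p = 0.00207). MRPL19, a large-subunit protein, had 8.58, 9.10, 8.87 and 9.22 in MNNG_High, against 9.81, 9.80, 9.72 and 9.74 in MNNG_Low. Its Low arrays lay within a narrow band and its High arrays spread more widely below it. The difference was -0.82 ± 0.15 (1.77-fold lower, adjusted p = 0.00357).

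MRPL38, which belongs to the mitochondrion-specific part of the large subunit, had 7.02, 7.04, 7.11 and 7.05 in MNNG_High, against 7.93, 7.63, 8.08 and 7.56 in MNNG_Low. Here the High arrays agreed closely with each other (-0.74 ± 0.14, adjusted p = 0.00413). MRPL11, at the base of the stalk where translation factors bind, was lower by about the same amount (-0.74 ± 0.15, adjusted p = 0.00507). MRPL10, the stalk protein itself, changed less (-0.47 ± 0.13, adjusted p = 0.0197). MRPL58, a peptidyl-tRNA hydrolase that frees stalled ribosomes and is also built into the large subunit, had 9.15, 9.29, 9.24 and 9.06 in MNNG_High, against 10.12, 9.80, 9.86 and 9.72 in MNNG_Low. It was 1.61-fold lower (-0.69 ± 0.12, adjusted p = 0.00343), with no overlap between the groups.

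MRPL50 (-0.72 ± 0.23), MRPL44 (-0.69 ± 0.20) and MRPL13 (-0.68 ± 0.15) were also called lower. MRPL44 has an RNase III-like fold, and its mutations cause cardiomyopathy in people. Its MNNG_High signals were 7.95, 8.39, 7.50 and 8.40, against 8.71, 8.69, 8.74 and 8.84 in MNNG_Low, so tumors MNNG-1231 and MNNG-1233 were the lowest. In the small subunit, MRPS7, a protein of the head, differed by -0.53 ± 0.13 and MRPS27, a pentatricopeptide repeat protein, by -0.45 ± 0.13, though the mean of MRPS27's probe sets gave 0.0043. The other 17 called members differed by -0.64 to -0.44.

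The 4 members MRPL2, MRPL17, MRPL14 and MRPS6 lay near or above 0 in this comparison. MRPL2, in the peptidyl transferase region of the large subunit, had 7.74, 7.55, 7.98 and 7.37 in MNNG_High, against 7.38, 7.35, 7.45 and 7.21 in MNNG_Low. It was higher in every tumor and was not called (0.31 ± 0.19, adjusted p = 0.199), but it was called in the limma fit with the tumor block (adjusted p = 0.0289). MRPL17 (-0.07 ± 0.22), MRPL14 (-0.07 ± 0.13) and MRPS6 (-0.04 ± 0.14) were not called either.

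In the tumor-by-tumor view, 66 of 75 members were lower in MNNG_High than in MNNG_Low in all 4 tumors, against 41.8% of all genes, and 1, MRPL2, was higher in all 4, against 18.9% of all genes. The median member difference was -0.59 in MNNG-1231, -0.28 in MNNG-1232, -0.46 in MNNG-1233 and -0.35 in MNNG-1235. The medians over all genes were -0.28, -0.07, -0.25 and -0.07 in the same tumors, so tumors MNNG-1231 and MNNG-1233 had the lowest medians of both kinds. The groups did not overlap in 54 members, all lower in MNNG_High, whereas 19.4% of all genes were lower without overlap and 29.8% did not overlap in either direction.

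By subunit, the call was lower for 20 of 48 large-subunit genes and 8 of 27 small-subunit genes, with medians of -0.45 and -0.42. The large minus small difference of the medians was -0.03.

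These calls are sensitive to the arrays used. Without the MNNG_High arrays of MNNG-1231 and MNNG-1233 together, which have the narrowest spread of the High arrays, 2 members were called and the median was -0.35, while 0.388% of all genes were called. A second quantile normalization of the arrays also left 2 members called, with a median of -0.15 and an all-gene median of 0.01, while 7.36% of all genes were called. With the date tag as a covariate the comparison rests on MNNG-1231 alone on the Low side. The member median was then -0.51, against -0.14 for all genes. With 1 such array the fit cannot show whether the calls hold.

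Marker signals of other cell types and of dividing cells also differed in this comparison. Of 6 tested macrophage markers, 4 were higher in MNNG_High, led by AIF1 (2.34 ± 0.27), while the group means of PTPRC, TYROBP, LYZ and C1QB were under the filter level in both MNNG_High and MNNG_Low. The summed signal of the 10 macrophage markers was 938 to 1847 in MNNG_High and 415 to 529 in MNNG_Low. Of 12 markers of dividing cells, 4 were called lower in MNNG_High and 0 higher, with a summed signal of 11114 to 12899 in MNNG_High and 13437 to 16064 in MNNG_Low. Of 4 tested muscle markers 2 were higher, with a summed signal of 439 to 559 in MNNG_High and 372 to 379 in MNNG_Low. The part of the cells that these markers stand for, of array spread and of the date tag in the members' differences was not tested.

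**Figure D2:**
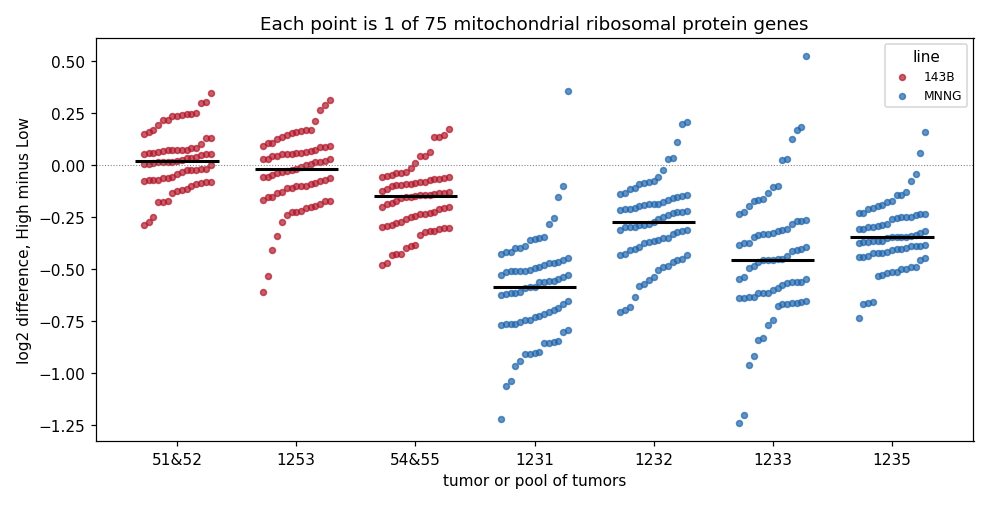
High minus Low log2 difference of each member within a tumor or pool, with 143B pools and tumor at the left and MNNG tumors at the right. Black lines are medians, and a pool is set against the mean of its tumors' Low arrays. The MNNG medians lie between -0.59 and -0.28, and the 143B medians between -0.15 and 0.02.

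Genes that work with the mitochondrial ribosome were counted in the same comparison, in which 15.5% of all genes were called lower. Of 5 tested mitoribosome proteins with other symbols, 3 were lower in MNNG_High, GADD45GIP1 (-0.76), DAP3 (-0.47) and PTCD3 (-0.52), and 0 were higher. Translation factors had 5 lower and 0 higher of 13, among them GUF1, a translation GTPase (-0.89), MTFMT, which formylates the initiator tRNA (-0.71), and TACO1, an activator of COX1 translation (-0.50). Mitochondrial aminoacyl-tRNA synthetases had 8 lower and 0 higher of 20, among them LARS2 (-0.89), MARS2 (-0.92) and IARS2 (-0.76). Assembly and rRNA-modifying factors had 4 lower and 0 higher of 27 (14.8%, near the share of all genes), with METTL15 at -0.85, TFB1M at -0.71 and TRUB2 at -0.37.

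Genes for copying and reading mitochondrial DNA had 5 lower and 0 higher of 15, among them PNPT1 (-0.72), POLG (-0.65) and MTERF2 (-0.55). Of 9 regulators of mitochondrial genes 2 were lower, NRF1 (-0.90) and GABPB1 (-0.56). Respiratory chain subunits from nuclear genes had 8 lower and 0 higher of 45 (17.8%, also near it), with a median of -0.37. Cytosolic ribosomal proteins had 3 lower and 2 higher of 58, with a median of -0.10, against -0.42 for the 75 mitochondrial ones. The cytosolic ones were far brighter, with mean log2 signals of 13.0 to 13.2 on the MNNG bone arrays. The part of signal level in this contrast was not tested.

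In 143B, the same fractions showed no called member. Of all genes, 0.00694% were called in 143B_High against 143B_Low. The median member difference was -0.05, against -0.02 for all genes, and 1 member had an unadjusted p under 0.05. Leaving out 1 array moved the median between -0.082 and 0.0078, the second without pool 143B-54&55. The member with the unadjusted p under 0.05 was MRPL19, with 9.26, 9.39 and 9.24 in 143B_High (143B-1253, 143B-51&52 and 143B-54&55), against 9.55, 9.58, 9.88, 9.64 and 9.63 in 143B_Low (143B-1251 to 143B-1255). All High values were under all Low values, and the limma adjusted p was 0.905 (-0.36 ± 0.15).

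The next smallest p-values were those of MRPS9 (-0.23 ± 0.13), MRPL50 (-0.40 ± 0.24) and MRPL13 (-0.25 ± 0.15), none of them called. The groups did not overlap in 7 members that were lower and 1 that was higher in 143B_High, against 6.53% and 5.34% of all genes (11.9% in either direction). The high-minus-low median was 0.02 for pool 143B-51&52, -0.02 for tumor 143B-1253 and -0.15 for pool 143B-54&55. Members lower in all 3 sources numbered 21, against 25.6% of all genes, and 4 were higher in all 3, against 19.8%.

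The difference between the lines in this contrast was tested directly. High minus Low in 143B minus the same in MNNG was above 0 in 74 of 75 members, with a median of 0.36 against 0.15 for all genes, and the limma fit called 0 of them. Unadjusted p was under 0.05 in 17 members, and 0.00694% of all genes were called. MRPL38 had the smallest p (0.81 ± 0.20, adjusted p = 0.435). MRPL35, a large-subunit protein (0.71 ± 0.18), MRPS9 (0.63 ± 0.19) and MRPL58 (0.55 ± 0.17) followed, with adjusted p of 0.445 to 0.453. Over the 75 genes, the MNNG and 143B differences, which share no array, had r = 0.556, which describes genes read by the same probe sets in both lines.

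**Figure D3:**
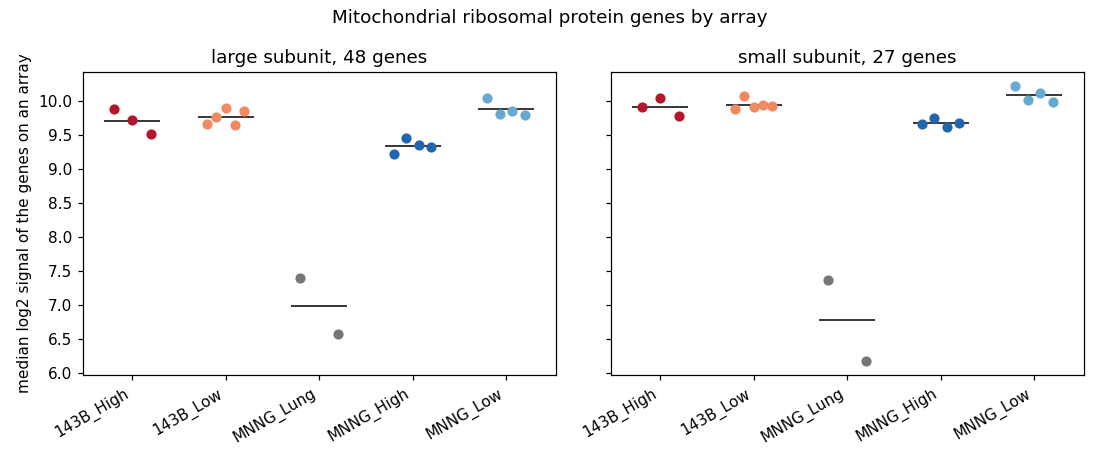
Median log2 signal of the 48 large-subunit and 27 small-subunit genes on each array (points), with the group mean (bars). Large-subunit medians were 9.21 to 9.45 in MNNG_High, under the 9.79 to 10.04 of MNNG_Low, and 6.57 and 7.40 on the lung arrays.

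Between the lines, members differed in both directions. In dye-poor cells, 7 members were called higher and 13 lower in 143B_Low than in MNNG_Low. That was 26.7% of the members, near the 28.8% of all genes that were called (14.4% higher and 14.5% lower). The members' median was -0.11, against -0.04 for all genes, and the extremes reached 1.35 and -1.49. Sorting by subunit gave 5 higher and 8 lower of 48 large-subunit genes, and 2 higher and 5 lower of 27 small-subunit genes. Medians were -0.10 and -0.15. The groups did not overlap in 12 members that were higher and 25 that were lower in 143B_Low, against 18.1% and 20.2% of all genes (38.3% in either direction). After a second quantile normalization 7 were called higher and 8 lower. With the GAPDH 3' minus 5' signal in the fit, 11 were called higher and 7 lower, and the median turned to 0.069.

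MRPS6, a small-subunit protein of the platform, was the member most below MNNG. Its log2 signal was 10.27, 10.38, 10.83, 10.52 and 10.31 in 143B_Low, against 12.00, 11.95, 12.10 and 11.77 in MNNG_Low. The groups lay far apart, and the difference was -1.49 ± 0.14 (2.81-fold lower, adjusted p = 1.26e-07). MRPL41, a large-subunit protein also studied in cell death, had 10.30, 10.63, 10.72, 10.60 and 10.79 in 143B_Low, against 12.23, 11.80, 11.99 and 11.61 in MNNG_Low. It was 2.46-fold lower in 143B_Low (-1.30 ± 0.21, adjusted p = 9.60e-05), and a second bright probe set of MRPL41 gave -1.19.

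MRPL13, a large-subunit protein kept from bacteria to mitochondria, had 9.75, 9.60, 9.93, 9.83 and 9.87 in 143B_Low, against 10.83, 10.89, 10.92 and 10.85 in MNNG_Low. It was 2.11-fold lower (-1.07 ± 0.14). MRPL58 was 1.85-fold lower (-0.88 ± 0.11). MRPL38 (-0.73 ± 0.13), MRPL39 (-0.71 ± 0.12), MRPS23 (-0.67 ± 0.21) and MRPS2 (-0.67 ± 0.17) were called lower as well, and no array of these 143B_Low groups reached a MNNG_Low array. MRPL12, which also binds the mitochondrial RNA polymerase, differed by -0.35 ± 0.12 (adjusted p = 0.0325), a call lost with the tumor block (adjusted p = 0.0582) and a direction that 1 other choice of probe sets turned (0.0062).

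In the other direction, MRPL17, a protein near the exit of the peptide tunnel, had 9.83, 10.26, 10.20, 10.13 and 10.15 in 143B_Low, against 8.84, 8.83, 8.62 and 8.75 in MNNG_Low. It was 2.56-fold higher in 143B_Low (1.35 ± 0.21, adjusted p = 7.72e-05). MRPL36, which joins the large subunit late in its assembly, had 11.29, 11.59, 11.55, 11.44 and 11.41 in 143B_Low, against 10.40, 10.68, 10.48 and 10.57 in MNNG_Low (0.92 ± 0.18, adjusted p = 0.000724). MRPS17 (0.78 ± 0.14), MRPL46 (0.70 ± 0.12), MRPL23 at the tunnel exit (0.67 ± 0.13), MRPS16 (0.48 ± 0.15) and MRPL16 (0.40 ± 0.13) completed the 7. Mutations of MRPS16 cause a severe respiratory chain disease of newborns.

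**Figure D4:**
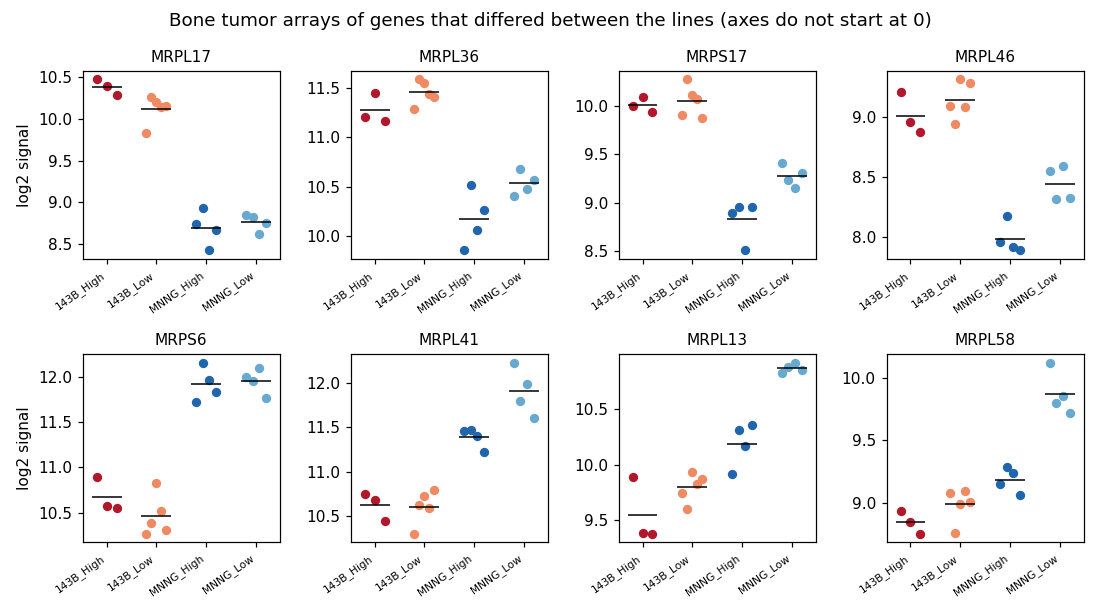
Log2 signal of 8 members on the bone tumor arrays (points) with group means (bars), for 143B_High, 143B_Low, MNNG_High and MNNG_Low from left to right. MRPL17, MRPL36, MRPS17 and MRPL46 are higher in both 143B groups, and MRPS6, MRPL41, MRPL13 and MRPL58 are lower in them. The MNNG_High mean is also under the MNNG_Low mean, most in MRPL58 (-0.69) and MRPL13 (-0.68). MRPL41 (-0.52), MRPL46 (-0.46), MRPS17 (-0.44) and MRPL36 (-0.36) follow, and MRPL17 (-0.07) and MRPS6 (-0.04) are near 0.

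The dye-retaining cells of the lines gave more calls upward. In 143B_High against MNNG_High, 22 members were called higher and 4 lower. That was 34.7% of the members, near the 36.1% of all genes that were called (21.4% higher and 14.7% lower). The median was 0.20, against 0.01 for all genes. The large subunit had 13 higher and 3 lower, and the small subunit 9 higher and 1 lower. MNNG_High is also a side of the comparison with MNNG_Low, so the shared arrays enter both sets of differences. The groups did not overlap in 29 members that were higher and 6 that were lower, against 24.9% and 17.1% of all genes (42% in either direction). Leaving out the MNNG_High arrays of MNNG-1231 and MNNG-1233 together gave 13 higher and 2 lower, with 22.9% of all genes called. A second quantile normalization gave 10 higher and 5 lower, with 27.4% of all genes called. Median centring gave 24 higher and 3 lower, with 35% of all genes called.

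MRPL17 had 10.47, 10.39 and 10.29 in 143B_High (143B-1253, 143B-51&52 and 143B-54&55), against 8.75, 8.94, 8.43 and 8.68 in MNNG_High, which made it 3.22-fold higher (1.69 ± 0.24, adjusted p = 3.66e-05). MRPL23 had 10.63, 10.40 and 10.52 in 143B_High, against 9.23, 9.37, 9.36 and 9.32 in MNNG_High (1.20 ± 0.15). Both genes were clear of overlap by more than 1 on the log2 scale. A second, dim probe set of MRPL23 went the other way (-0.55), so its direction depends on the probe set.

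MRPS17 (1.18 ± 0.16), MRPL36 (1.10 ± 0.21), MRPL46 (1.03 ± 0.14), MRPS9 (0.84 ± 0.14), MRPL16 (0.80 ± 0.14) and MRPS16 (0.79 ± 0.17) followed. MRPS6 was again lowest, with 10.89, 10.57 and 10.55 in 143B_High, against 11.72, 12.16, 11.97 and 11.83 in MNNG_High (-1.25 ± 0.15, adjusted p = 7.67e-06). MRPL41 (-0.76 ± 0.24), MRPL13 (-0.64 ± 0.16) and MRPL58 (-0.34 ± 0.13, adjusted p = 0.0546 with the tumor block) were the other called decreases. Among members chosen for their roles, MRPL11 (0.49 ± 0.16), MRPL44 (0.61 ± 0.22), MRPL45 at the exit tunnel (0.42 ± 0.14), MRPS22, mutated in mitochondrial disease (0.64 ± 0.20), and MRPS34, needed for small-subunit stability (0.51 ± 0.16), were called higher.

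Calls in the Low and the High comparison of the lines overlapped in 11 members with the same direction, which is 55.0% of the 20 Low calls and 42.3% of the 26 High calls. Over all genes the shared calls were 69.5% of the Low calls and 55.5% of the High calls. They made up 14.7% of the members and 20% of all genes, 12.8% higher and 7.28% lower in 143B. The 11 members comprised 7 higher in 143B (MRPL16, MRPL17, MRPL23, MRPL36, MRPL46, MRPS16 and MRPS17) and 4 lower (MRPL13, MRPL41, MRPL58 and MRPS6), and 0 were called in opposite directions. Over the 75 genes the Low and High line differences had r = 0.943. These comparisons share no array, but they share tumors, probe sets and date tags.

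Across all bone arrays, 12 members separated the 8 arrays of 143B from the 8 of MNNG with no overlap, against 19.1% of all genes (12.7% higher and 6.42% lower in 143B). Of these, 8 were higher in 143B, namely MRPL17, MRPL20, MRPL23, MRPL36, MRPL46, MRPL49, MRPS16 and MRPS17. The 4 that were lower were MRPL41, MRPS2, MRPS5 and MRPS6. MRPL17 had a lowest, median and highest signal of 9.83, 10.23 and 10.47 in 143B, against 8.43, 8.75 and 8.94 in MNNG. MRPS6 had 10.27, 10.53 and 10.89 in 143B, against 11.72, 11.96 and 12.16 in MNNG. MRPL49, with 9.60, 9.84 and 9.96 in 143B and 8.95, 9.15 and 9.34 in MNNG, was not called in either fraction (adjusted p = 0.264 in Low and 0.093 in High). The lung arrays of MRPL49 had an SD of 1.93, which enters the pooled error of the fit, against 0.15, 0.12, 0.06 and 0.05 in 143B_High, 143B_Low, MNNG_High and MNNG_Low.

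The genes with back-to-back starts printed above, MRPL46 and MRPS11, were set side by side. In 143B_High against MNNG_High both were called higher (MRPL46 1.03 ± 0.14, MRPS11 0.69 ± 0.15). In MNNG_High against MNNG_Low both were called lower (MRPL46 -0.46 ± 0.13, MRPS11 -0.47 ± 0.14). In 143B_Low against MNNG_Low MRPL46 was called higher (0.70 ± 0.12) and MRPS11 was not called (0.24 ± 0.13, adjusted p = 0.196).

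Marker levels also differed between the lines. Of 8 tested mesenchymal markers, 6 were lower in 143B_Low than in MNNG_Low and 5 in 143B_High than in MNNG_High. Markers of dividing cells had 4 of 12 higher in 143B_Low and 9 of 12 in 143B_High. Their summed signal was 20035 to 21384 in 143B_High and 11114 to 12899 in MNNG_High, and 17964 to 20767 in 143B_Low and 13437 to 16064 in MNNG_Low. Macrophage markers had 3 of 6 lower in 143B_High than in MNNG_High, with a summed signal of 565 to 812 in 143B_High and 938 to 1847 in MNNG_High, and 0 of 6 called in 143B_Low (362 to 458, against 415 to 529 in MNNG_Low). Muscle markers had 3 of 4 lower in 143B_High (326 to 398, against 439 to 559 in MNNG_High) and 2 of 4 lower in 143B_Low (285 to 355, against 372 to 379 in MNNG_Low). The part of these markers in the members' differences was not tested.

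Working partners were also counted in 143B_Low against MNNG_Low, where 14.4% of all genes were called higher and 14.5% lower. Mitoribosome proteins with other symbols had 1 higher and 3 lower of 5. DAP3 (-0.92) and PTCD3 (-0.64) were lower and MALSU1, which keeps the subunits from joining early, was higher (0.89). WARS2 (2.04) and IARS2 (1.15) were higher and CARS2 (-0.66) lower, and the synthetases had 4 higher and 3 lower of 20. Translation factors had 2 lower of 13, MTFMT (-0.82) and TACO1 (-0.77). MYC (-1.03) and PPARGC1A (-0.79), known to drive mitochondrial gene programs, were the called regulators, 2 lower of 9. Respiratory chain subunits had 1 higher, SDHA (0.55), and 9 lower of 45, among them ATP5F1C (-0.66) and COX5B (-0.46). Genes for copying and reading mitochondrial DNA had 0 higher and 4 lower of 15. Assembly and rRNA-modifying factors had 2 higher and 2 lower of 27, and cytosolic ribosomal proteins 4 higher and 2 lower of 58.

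**Figure D5:**
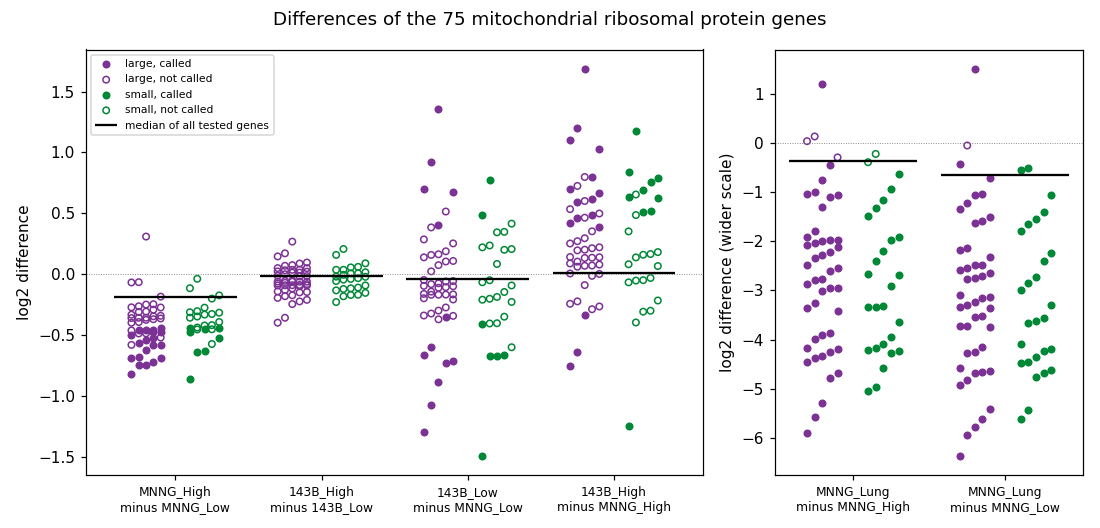
Log2 differences of the 75 genes in 6 comparisons, the lung comparisons on a wider scale at the right. Each point is a gene, filled where called, violet for the large and green for the small subunit, and black lines are medians of all tested genes. Nearly all points lie under the line in MNNG_High minus MNNG_Low, around it in 143B_High minus 143B_Low, and far under it in the lung comparisons, with MRPL2 at 1.21 and 1.52.

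On the lung arrays the brightest probe sets of nearly all members were lower than in MNNG bone tumors. Of 75 members, 69 were called lower and 1 higher in MNNG_Lung against MNNG_High, and 73 lower and 1 higher against MNNG_Low. Most genes were called in these comparisons, 82.4% (34.8% higher and 47.6% lower) and 87% (35.1% higher and 51.9% lower). Groups did not overlap in 1 member that was higher and 68 that were lower against MNNG_High, where 32.4% and 45.2% of all genes did so (77.6% in either direction). Against MNNG_Low these were 1 and 71 members, and 34.7% and 51% of all genes (85.7% in either direction). A second quantile normalization gave 7 members called higher and 54 lower against MNNG_High, with 84.3% of all genes called. The member medians were -2.68 and -3.23, against -0.37 and -0.64 for all genes. These comparisons rest on 2 arrays that stand apart in spread, in 3' minus 5' signal and in their correlation, as given above, and they share the lung arrays.

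MRPL3, whose mutations cause cardiomyopathy, had 7.53 on the array of tumor MNNG-1233 and 3.79 on that of the mixture in MNNG_Lung, against 11.42 to 11.69 in MNNG_High and 11.97 to 12.13 in MNNG_Low. Its 2 lung values were far apart. MRPS10, by contrast, had 5.19 and 5.17 in MNNG_Lung, against 9.93 to 10.35 in MNNG_High and 10.50 to 10.79 in MNNG_Low (-4.98 ± 0.14 against MNNG_High and -5.43 ± 0.14 against MNNG_Low). MRPL2 was the exception, with 9.41 and 8.32 in MNNG_Lung, against 7.37 to 7.98 in MNNG_High and 7.21 to 7.45 in MNNG_Low (1.21 ± 0.23 and 1.52 ± 0.23). A lung mean under the filter level was found in 7 members, MRPL19, MRPL30, MRPL50, MRPS9, MRPS10, MRPS17 and MRPS23, so the sizes of their differences are uncertain.

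Named members differed widely in size. Against MNNG_Low, MRPL3 (-6.37 ± 0.56), MRPL9 (-5.95 ± 0.56) and MRPL42 (-5.78 ± 0.51) were far lower, with 3.79, 4.51 and 3.72 on the mixture array. These values are under the filter level, so no order of size was read from them. MRPS12, at the decoding centre, differed by -2.85 ± 0.21 and MRPL12 by -1.58 ± 0.15. Among the 32 members with 2 or more tested probe sets, 9 had probe sets called in opposite directions in each lung comparison. These were MRPL23, MRPL41, MRPL52, MRPS5, MRPS12, MRPS15, MRPS26 and MRPS31 in both, with MRPL12 against MNNG_High and MRPL38 against MNNG_Low. For MRPS12 a dimmer probe set gave 1.16 against MNNG_Low. The 3 MRPS18 paralogs stood apart from each other, with MRPS18B at -4.47 ± 0.27, MRPS18C at -1.05 ± 0.22 and MRPS18A at -0.50 ± 0.18. The directions of MRPL12, MRPS18A and MRPS18C turned after a second quantile normalization (0.11, 1.14 and 0.77). Despite their symbols, MRPS18A and MRPS30 (-2.98 ± 0.32) sit in the large subunit of the assembled ribosome. MRPL55 was not called against either bone group.

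The large-subunit median lay above the small-subunit median in both, by 0.34 against MNNG_High and 0.42 against MNNG_Low. Counted by position in the ribosome, 50 large and 25 small, the first became 0.75. With the mean over a gene's probe sets the differences were 0.19 and 0.24, and without probe sets of types _x_at and _s_at the second was 0.045. The mean of the large minus that of the small subunit was 0.20 on the lung array of MNNG-1233 and -0.02 on that of the mixture. Mesenchymal markers had 6 of 8 lower against MNNG_High and 5 of 8 against MNNG_Low, although VIM was 14.3 in MNNG_Lung, 14.6 in MNNG_High and 14.6 in MNNG_Low. Dividing-cell markers had 11 of 12 lower in both, with a summed signal of 757 to 1304 in MNNG_Lung, 11114 to 12899 in MNNG_High and 13437 to 16064 in MNNG_Low. Macrophage markers had 4 of 6 higher against MNNG_High and 6 of 6 against MNNG_Low, with a summed signal of 1937 to 2309 in MNNG_Lung, 938 to 1847 in MNNG_High and 415 to 529 in MNNG_Low. Muscle markers had 3 of 4 higher in both and ACTA1 lower against MNNG_High, with a summed signal of 967 to 1267 in MNNG_Lung, 439 to 559 in MNNG_High and 372 to 379 in MNNG_Low. Of 5 tested markers of lung epithelium, SFTPC and SFTPB, surfactant proteins, were higher and KRT18 and EPCAM lower in both. Their summed signal was 974 to 1139 in MNNG_Lung, 3596 to 4441 in MNNG_High and 4408 to 4629 in MNNG_Low. SCGB1A1 was not tested and averaged 6.20 in MNNG_Lung, 4.21 in MNNG_High and 3.61 in MNNG_Low. The part of other cells, array spread and RNA quality in the members' differences was not tested.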

How the data were processed

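Human 3' expression arrays of 18 samples in 5 groups were analysed, grouped by sample titles. The authors deposited log2 signals from RMA, a tool named per the submitters' processing notes. RMA removes background, equalises array distributions and combines the probes of a set, which can mask shifts common to most genes, yet array spread still differed. Which version and which arrays went in together was not given in the sources used here.

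Of 54675 probe sets, 41097 were annotated to 1 gene, 1801 to several and 11777 to none, and only the first kind was used. The brightest probe set stood for a gene, by its mean over 18 arrays. A gene was tested if 3 or more arrays reached 5.36, the table median, and 14418 genes were. Members with over 1 probe set numbered 37. The number of arrays limits the precision. For each gene, p-values rest on the spread within groups, pooled over all 5 groups with the lung arrays among them. This is spread between tumors, pools or mixtures within a line, not between lines.

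A limma 3.58.1 fit in R 4.3.3 held a mean for each group, with Benjamini-Hochberg adjustment over all tested genes and a threshold of 0.05, for 7 comparisons. Values after ± are standard errors of the fit unless SD is given. The fit was tested on simulated data with independent arrays and, for each gene, the same spread in every group. Shared tumors and the wider spread of the lung arrays were therefore not covered by it. Members were named by a rule: in each comparison up to 8 called increases and 8 called decreases of largest size without overlap of the groups, or the 4 smallest p where fewer than 4 were called, the 3 highest and the 3 lowest by mean signal, and 17 members picked for their roles, of which the text prints a selection. Members printed because they separate the lines on all bone arrays, or lie back to back, or lie near 0, were chosen after their values were seen. Up to 3 genes of each other list were named by smallest p. The members and lists were chosen with earlier results of these data known. Summed marker signals are sums of linear probe set signals.

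High and Low fractions with a shared tumor number come from 1 tumor, per the labels. Their deviations from group means correlated over genes with r of 0.494, 0.370, 0.299 and 0.579 in the 4 MNNG tumors and 0.542 in tumor 143B-1253. Pool 143B-51&52 had r of -0.192 with 143B-1251 and 0.529 with 143B-1252, and pool 143B-54&55 had r of 0.243 with 143B-1254 and 0.063 with 143B-1255. Alternatives were another probe set rule, other normalizations, no filter, fewer arrays, tumor blocks, the date tag, a term for the GAPDH 3' to 5' signal, and each array left out in turn. Leaving out the MNNG_High arrays of MNNG-1231 and MNNG-1233 together was chosen after seeing the data.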

Additional observations from a re-analysis of the deposited data

Results flagged for a closer look

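In 8 of 123 groups of 4 or 5 values examined, a single array lay far from the rest of its group. Chance gives about 1 in 20 groups. In MNNG_High, tumor MNNG-1232 was high for MRPL45 at 8.71, against 8.22 to 8.29 in the others, and for MRPS30 at 10.5, against 9.65 to 9.75. Tumor MNNG-1233 was low for MRPS17 in MNNG_High at 8.51, against 8.89 to 8.96. In MNNG_Low, tumor MNNG-1235 was low for MRPS7 at 9.28, against 9.50 to 9.54. In 143B_Low, tumor 143B-1251 was low for MRPL12 at 9.22, against 9.58 to 9.63. Tumor 143B-1253 of 143B_Low was high for MRPL19 at 9.88, against 9.55 to 9.64, and for MRPS18B at 11.2, against 10.89 to 10.96, and low for MRPL45 at 8.67, against 8.73 to 8.76. Causes were not tested.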

How the results depend on the processing

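In MNNG_High against MNNG_Low, the 28 called members became 62 without the lung arrays, with 44.4% of all genes called. They became 43 after median centring (median -0.53), with 32.9% of all genes called. With the GAPDH signal as a covariate 14 were called (median -0.26), and 10.7% of all genes. After a second quantile normalization 2 were called (median -0.15), and 7.36% of all genes. With a term for the date tag, which leaves 1 array to carry the Low side, the median was -0.51. Without the MNNG_High arrays of MNNG-1231 and MNNG-1233 together, an alternative chosen after seeing the data, 2 were called, both among the 28, and 143B_High against MNNG_High had 15. Leaving out 1 array at a time gave 19 to 31 calls, with medians of -0.46 to -0.39. The median was negative in each of these. The median of all genes was -0.30 with median centring and 0.01 with quantile normalization in that comparison, against -0.19. The tumor replicate block was fitted without the lung arrays for High against Low, and gave 68 calls in MNNG (67 lower and 1 higher) and 0 in 143B and in the difference of the lines. Without the lung arrays alone there were already 62. As a random block with all arrays it gave 18 and 25 calls between the lines (26.7% and 35.6% of all genes). In the lung comparisons it gave 71 and 74 (83% and 87.4% of all genes). It ended the call of 2 named members, MRPL12 in 143B_Low against MNNG_Low (-0.34) and MRPL58 in 143B_High against MNNG_High (-0.34), and added that of MRPL2 in MNNG_High against MNNG_Low (0.31).

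In 143B_Low against MNNG_Low, 20 calls became 35 without the lung arrays (37.2% of all genes). They became 37 with the compared groups alone (45.3% of all genes), and leaving out 1 array gave 16 to 20. In 143B_High against MNNG_High, 26 calls became 15 after quantile normalization (median 0.042), and leaving out 1 array gave 16 to 26, the lowest without pool 143B-51&52. Without probe sets of types _x_at and _s_at, which left 42 members, calls were 9, 9, 38 and 41 in 143B_Low against MNNG_Low, 143B_High against MNNG_High, and the lung against MNNG_High and against MNNG_Low. The GAPDH covariate moved the medians to 0.041 in 143B_High against 143B_Low, 0.069 in 143B_Low against MNNG_Low and 0.36 in 143B_High against MNNG_High. The median of the difference between the lines was 0.14 after quantile normalization. In 143B_High against 143B_Low no alternative called a member.

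The lung medians against MNNG_High and MNNG_Low were -2.10 and -2.54 with the mean over probe sets, -2.18 and -2.41 after quantile normalization, and -3.61 against MNNG_Low after median centring. Leaving out 1 array gave -2.75 to -2.29 and -3.32 to -2.83, the second of each without the lung mixture. Large minus small medians were 0.046 for MNNG_High against MNNG_Low and 0.19 and 0.24 for the lung comparisons with mean probe sets, -0.094 for 143B_High against MNNG_High and 0.045 for lung against MNNG_Low without _x_at and _s_at, 0.70 for lung against MNNG_High after quantile normalization and 0.75 there by position in the ribosome.

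Directions reversed for 14 named values. With mean probe sets these were MRPS27 at 0.0043 in MNNG_High against MNNG_Low and MRPS18C at 0.44 and 0.16 in the lung against MNNG_High and MNNG_Low. Without _x_at and _s_at they were MRPL12 at 0.0062 in 143B_Low against MNNG_Low and 0.38 and 0.12 in the lung, and MRPL23 at -0.55 in 143B_High against MNNG_High. After quantile normalization, MRPL12 (0.12 and 0.11), MRPS18C (0.89 and 0.77) and MRPS34 (0.19 and 0.10) reversed in both lung comparisons and MRPS18A (1.14) in that with MNNG_Low. The cause was not tested. Of the other named values, 1497 kept direction and call and 105 kept direction and lost the call. Probe sets carry no detection call here, and under the filter level sizes are uncertain.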
